A study of Xenopus laevis with 9 samples.

Results

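The genes described are the AP-1 and immediate early transcription factors jun, junb, jund, fos, fosb, fosl1, fosl2, atf3 and egr1 in animal pole explants of Xenopus laevis. They were chosen by family and symbol, with fits of these same libraries already known, and no threshold on a measured value enters the rule. Every row whose symbol, without a final .L or .S, was one of the 9 names was taken, which gave 18 of the 51061 rows of the count tables. This frog is allotetraploid, and .L and .S name the gene copies (homeologs) on its long and short subgenomes. Each of the 9 genes had 1 row of each kind.

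RNA-seq was performed on 9 libraries in 3 groups of 3. The St9 soxb1 morphant libraries were stage 9 blastula explants of embryos injected with translation-blocking morpholinos against sox2 and sox3, and the St9 wild type libraries were stage 9 blastula explants with no treatment listed. The St11.5 NPB libraries were explants at stage 11.5, labelled as neural plate border (NPB) and as treated with Wnt8a and Chordin mRNA. All embryos were of wild-type genotype, each RNA sample pooled several explants, and no library with a control morpholino was analysed here. The study used the morphant libraries to ask which blastula genes depend on SoxB1 factors. NPB and wild-type libraries differ in stage, injected RNA and count table, which cannot be told apart. The p-values of the NPB comparison measure the spread between explant pools, which the study calls biological replicates. At stage 9 libraries were paired by replicate number, and the p-values measure the spread of the morphant to wild-type difference over the pairs.

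AP-1 is a dimer of basic leucine zipper (bZIP) proteins, typically 1 of the Jun family (jun, junb, jund) with 1 of the Fos family (fos, fosb, fosl1, fosl2), and it binds the TPA response element in promoters and enhancers. ATF3 is a related bZIP protein that can pair with Jun proteins and is induced by stress, and EGR1 is a zinc finger factor. In many cells these genes are immediate early genes: growth factors, wounding or stress act through MAP kinases on factors already present, such as SRF with its ternary complex partners, and transcripts appear without new protein synthesis and are then cleared quickly. In the early frog embryo FGF signalling uses AP-1 in mesoderm formation, and cutting of tissue can itself switch such genes on.

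Levels are given as CPM, each count as parts of 1000000 of a library total scaled by the TMM factors of edgeR over the 9 libraries. They carry no length correction and serve to compare libraries, not genes. The libraries summed to 25796466 to 48839143 counts each. Rows under 3 counts in a library, or 0.0779 to 0.132 CPM, were treated as not told from absent, a floor that covers counting error only. The targeted transcripts were measured in every library as a look at the labels, although a block of translation need not change them. sox3.S stood at 576, 519 and 775 CPM in morphants, against 383, 313 and 563 CPM in wild type, and all 4 rows named sox2 or sox3 were higher in each morphant than in the wild-type library of its number. The NPB label was looked at through neural plate border markers, of which 14 of 15 tested rows were higher than in wild type, with a summed level of 2190 to 4460 CPM in NPB explants, against 280 to 338 CPM in wild type.

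**Figure D1:**
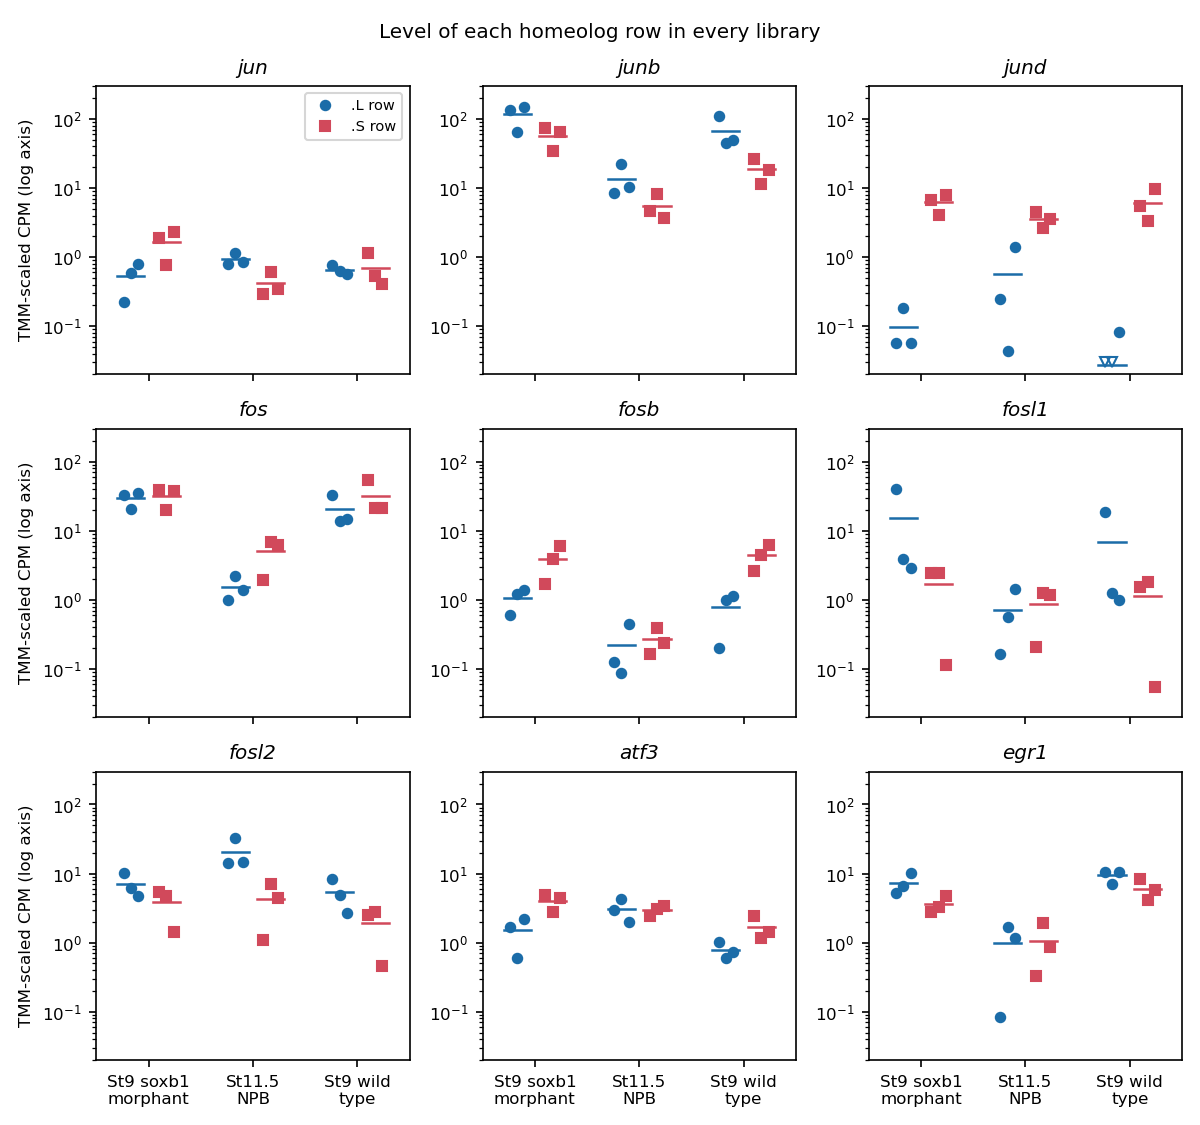
Level of the .L row (blue circles) and the .S row (red squares) of each gene in every library, in TMM-scaled CPM on a log axis, with a line at the mean of the 3 libraries of a group; open triangles mark counts of 0. Both rows of fos, junb and egr1 lay lower in every NPB library than in any stage 9 library.

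In blastula stem cells depleted of SoxB1 factors, some rows of jun, junb, fosl1, fosl2 and atf3 were more abundant than in wild-type explants. With .L and .S counts added, fosl1, fosl2 and atf3 were called higher, and no Jun family gene was called. Of 17 member rows that passed the count filter, 6 were called higher and 0 were called lower (edgeR, adjusted p of 0.05 or less), namely junb.S, fosl1.L, atf3.S, jun.S, fosl2.S and fosl2.L. Over all 21659 rows tested, 5.75% were called higher and 6.71% lower. By an unadjusted p under 0.05, 10 of the 17 member rows passed, 2 of them lower, where 5406 of all 21659 rows passed. DESeq2 with the block called 4 member rows higher and 0 lower, and 866 higher and 1121 lower over all 21659 rows. The calls rest on the pairing of libraries by replicate number. Without the replicate block edgeR called 0 of 17 member rows and 0 of all 21659 rows. In that fit 2 member rows were under an unadjusted p of 0.05, and 1238 over all rows. DESeq2 without the block called junb.S alone among the members, and 179 rows higher and 258 lower over all rows. The row jund.L did not pass the filter, with 2, 7 and 2 counts in morphants and 0, 0 and 3 counts in wild type. Since the genes were proposed with these results known, the p-values that follow describe the fit and are no independent evidence.

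**Figure D2:**
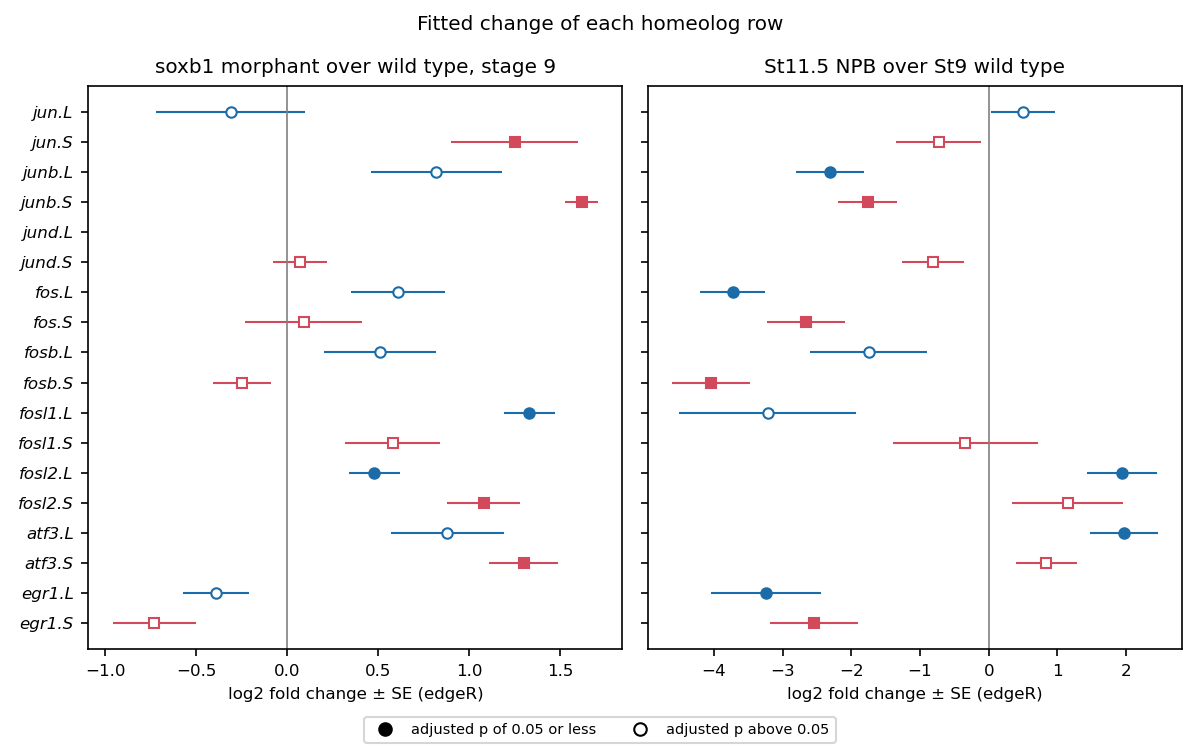
Fitted log2 fold change of each row with its approximate SE, for soxb1 morphant over wild type at stage 9 (left) and St11.5 NPB over St9 wild type (right), with filled symbols at an adjusted p of 0.05 or less (edgeR). In morphants the 6 filled symbols lie above 0, and in NPB explants 2 lie above and 7 below.

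The Jun family was led by junb, whose product is a Jun protein often found to act more weakly than Jun itself on AP-1 sites. junb.S (gene7235) stood at 73.8, 34.3 and 63.8 CPM in the 3 morphant libraries, against 26.5, 11.5 and 18.5 CPM in the 3 wild-type libraries. The groups did not overlap, and the morphant library was higher in every pair, by 1.48, 1.57 and 1.78 on the log2 scale. The fitted log2 fold change was 1.62 ± 0.09 (SE), a 3.07-fold difference (edgeR adjusted p = 2.14e-08), and it was the one member call that DESeq2 made both with the block and without it.

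The other homeolog, junb.L (gene51009), had 137, 64 and 149 CPM in morphants and 109, 44.5 and 49.2 CPM in wild type. The groups overlapped. The differences within pairs were 0.33, 0.52 and 1.60 log2 units, and the fitted 0.82 ± 0.36 (SE) did not pass the test (edgeR adjusted p = 0.35), although it did without the third pair, at 0.43 (adjusted p = 0.00226), while without the first it was 1.06 (adjusted p = 0.451). With .L and .S counts added before the fit, junb gave 1.03 ± 0.27 (SE; edgeR adjusted p = 0.165), so the call belongs to the .S row.

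jun, which encodes the c-Jun protein that gives the family its name, had few counts in these explants. jun.S (gene5991) had 66, 30 and 81 counts in morphants and 34, 18 and 15 counts in wild type, or 1.87, 0.779 and 2.29 CPM against 1.15, 0.532 and 0.409 CPM. The fit gave 1.25 ± 0.35 (SE; edgeR adjusted p = 0.0351), with overlapping groups and a difference of 2.32 in the third pair against 0.68 and 0.50 in the other two. Without the second pair the value was 1.5 and no longer passed (adjusted p = 0.0678), and without the third it was 0.64 (adjusted p = 0.251). DESeq2 with the block did not call jun.S (adjusted p = 0.105). With .L and .S counts added before the fit, jun gave 0.68 ± 0.29 (SE; edgeR adjusted p = 0.168). jun.L (gene10896) had 0.227, 0.597 and 0.792 CPM in morphants and 0.775, 0.621 and 0.573 CPM in wild type, with a fitted -0.31 ± 0.41 (SE; edgeR adjusted p = 0.717).

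jund, the Jun gene that is broadly expressed in many adult tissues, showed no detectable difference. jund.S (gene17878) had 6.76, 4.05 and 7.81 CPM in morphants and 5.43, 3.31 and 9.77 CPM in wild type. Its log2 fold change was 0.07 ± 0.15 (SE; edgeR adjusted p = 0.845). The tables hold 3 further rows with related names, jund.2.S and provisional copies of jun and jund, which fall outside the rule.

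Among the Fos family, the genes called were those of the Fos-related antigens fosl1 and fosl2, which lack the strong activation domain of Fos. fosl1.L (gene20267) differed far more between replicate numbers than between groups. It stood at 39.8, 3.92 and 2.94 CPM in morphants, against 18.6, 1.27 and 0.982 CPM in wild type, so that in each group replicate 1 lay far above the others and the highest library was 13.5 times the lowest in morphants and 18.9 times in wild type. Within pairs the morphant was higher each time, by 1.09, 1.58 and 1.52 on the log2 scale, and the fit gave 1.33 ± 0.14 (SE; edgeR adjusted p = 1.47e-05). The groups overlapped, and the call was also made without each pair in turn.

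fosl1.S (gene16564) varied as widely but in another library pair. It had 86, 95 and 4 counts in morphants and 46, 61 and 2 counts in wild type, so replicate 3, not replicates 2 and 3 as for the .L row, was the low one. The level was 2.44, 2.47 and 0.113 CPM in morphants, against 1.55, 1.8 and 0.0546 CPM in wild type. Its log2 fold change of 0.58 ± 0.26 (SE) did not pass the test (edgeR adjusted p = 0.182).

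fosl2.S (gene7892) had 5.45, 4.78 and 1.41 CPM in morphants and 2.49, 2.78 and 0.464 CPM in wild type, higher in each pair by 1.11, 0.77 and 1.49 log2 units. The groups overlapped through the third pair, and the fit gave 1.08 ± 0.20 (SE; edgeR adjusted p = 0.00173). fosl2.L (gene48405) had 10.3, 6.26 and 4.81 CPM in morphants and 8.46, 4.82 and 2.7 CPM in wild type. Its log2 fold change of 0.48 ± 0.14 (SE; edgeR adjusted p = 0.0401) was the smallest of those called. It lost the call when any pair was left out, with adjusted p-values of 0.0989, 0.117 and 0.181, and under DESeq2 at 0.146.

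fos and fosb, the Fos proteins with a full activation domain, were not called in the main fit. With all rows of 1 count or more kept, fos.L alone of their rows was called, at 0.60 (edgeR adjusted p = 0.00369). fos.L (gene16777) had 33.2, 20.9 and 35.4 CPM in morphants and 32.7, 14 and 14.9 CPM in wild type, and the fitted log2 difference was 0.61 ± 0.26 (SE; edgeR adjusted p = 0.277). Within pairs it was 0.02, 0.57 and 1.25 log2 units, and the value was 0.91 without the first pair (adjusted p = 0.000138) and 0.28 without the third (adjusted p = 0.166). fos.S (gene4953) had 39.1, 20.1 and 37.8 CPM in morphants and 53.7, 21.7 and 21.1 CPM in wild type, with 0.09 ± 0.32 (SE; edgeR adjusted p = 0.921). In both rows the replicate 1 wild-type library was the highest of its group.

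fosb.L (gene4787) had 0.596, 1.22 and 1.39 CPM in morphants and 0.202, 1.01 and 1.15 CPM in wild type, and fosb.S (gene11691) had 1.7, 3.89 and 6 CPM in morphants and 2.66, 4.41 and 6.19 CPM in wild type. The fitted values were 0.51 ± 0.31 for fosb.L and -0.25 ± 0.16 for fosb.S (SE; edgeR adjusted p = 0.352 and 0.392). Both rows were lowest in replicate 1 of either group, the opposite of fosl1.L.

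atf3 was called through its .S row. atf3.S (gene3961) had 4.97, 2.8 and 4.36 CPM in morphants and 2.46, 1.15 and 1.42 CPM in wild type, with no overlap and differences of 1.0, 1.24 and 1.58 log2 units within pairs. The fit gave 1.30 ± 0.19 (SE; edgeR adjusted p = 0.000273). atf3.L (gene14557) had 1.7, 0.597 and 2.23 CPM in morphants and 1.01, 0.591 and 0.737 CPM in wild type, with differences of 0.72, 0.01 and 1.52 and a fitted 0.88 ± 0.31 (SE; edgeR adjusted p = 0.0793), or 0.45 without the third pair (adjusted p = 0.494). With both rows added, atf3 was called higher at 1.17 ± 0.18 (SE; edgeR adjusted p = 0.000418), as were fosl1 at 1.15 ± 0.13 (adjusted p = 2.43e-05) and fosl2 at 0.65 ± 0.13 (adjusted p = 0.00282).

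egr1, which many growth factors induce through the same kinase cascades as fos, lay on the other side of 0. egr1.S (gene47664) had 2.81, 3.25 and 4.72 CPM in morphants and 8.29, 4.11 and 5.84 CPM in wild type, and egr1.L (gene9650) had 5.2, 6.52 and 10.1 CPM in morphants and 10.7, 6.95 and 10.7 CPM in wild type. Both rows were lower in the morphant of every pair, and most in the first. The fitted -0.73 ± 0.23 for egr1.S and -0.39 ± 0.18 for egr1.L did not pass the test (SE; edgeR adjusted p = 0.081 and 0.199). egr1.S was -0.33 without the first pair (adjusted p = 0.519), and it passed without the third, at -0.96 (adjusted p = 0.0218). egr1.L was -0.10 without the first pair (adjusted p = 0.91). With all rows of 1 count or more kept, both rows were called lower. The values were then -0.73 for egr1.S and -0.40 for egr1.L (edgeR adjusted p = 0.000107 and 0.0267).

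**Figure D3:**
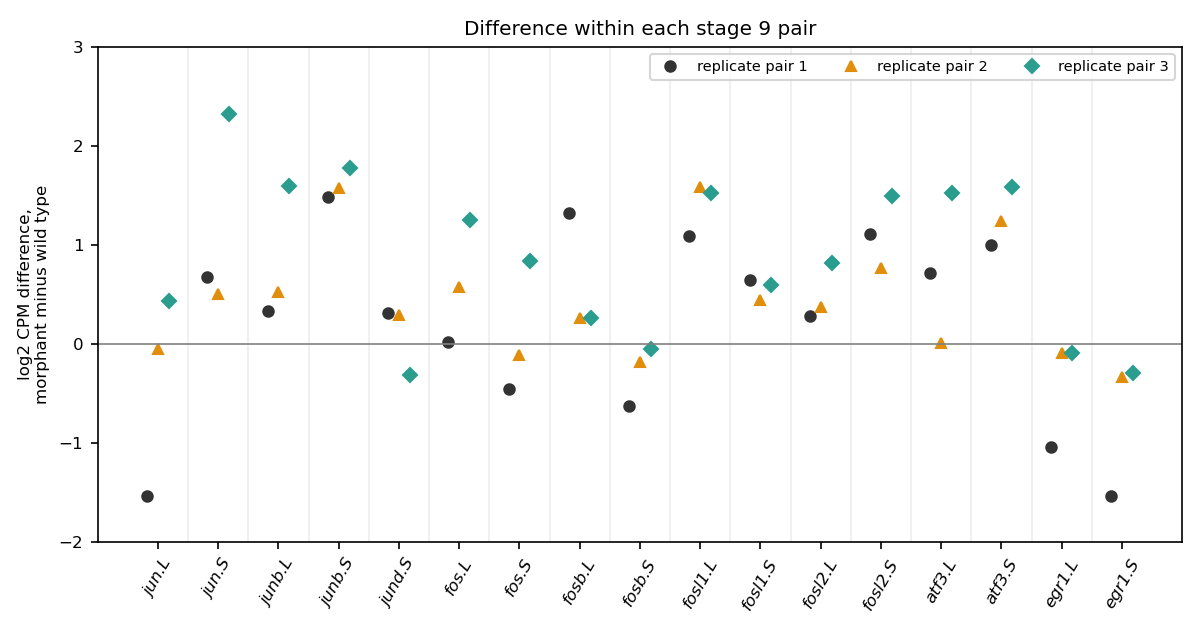
Difference in log2 CPM (prior count 2) between the morphant and the wild-type library of each replicate number, for the 17 rows tested. All 3 pairs lie above 0 for each row called higher, and the pairs of junb.S are close together (1.48 to 1.78). The third pair is the highest for most of the rows, among them junb.L, atf3.L and every called row except fosl1.L.

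The homeologs of a gene were compared by their ratio. The ratio of .S to .L counts within a library is free of the library total, although reads of near-identical copies can be assigned unevenly. For junb it was 0.537, 0.536 and 0.427 in morphants and 0.243, 0.258 and 0.376 in wild type, a mean change of 0.79 ± 0.53 log2 units over the 3 pairs (SD). For fos it was 1.18, 0.964 and 1.07 in morphants and 1.64, 1.55 and 1.42 in wild type, a change of -0.52 ± 0.14 (SD), and the ranges did not overlap in either gene. For egr1 the ratio was 0.541, 0.498 and 0.469 in morphants against 0.774, 0.591 and 0.545 in wild type, also without overlap but narrowly. The fosb ranges were narrowly apart as well, at 2.86 to 4.33 in morphants and 4.38 to 13.2 in wild type. For jun the change was 2.48, 0.61 and 2.02 log2 units over the pairs, at counts down to 7, and for fosl2 0.85, 0.40 and 0.78. In each of the 8 genes with counts in every library the 3 pairs had the same sign, toward .S for jun, junb, fosl2 and atf3 and toward .L for fos, fosb, fosl1 and egr1. Some of these signs rest on little: the third pair was 0.02 for atf3 and 0.19 for junb. In that pair fosl1.S had 4 counts in the morphant and 2 in wild type, the latter under the floor. An exact two-sided test over 3 pairs cannot go below 0.25, the value that each of the 8 genes gave. The ratio was not taken for homeologs of other genes, so whether the shared signs are particular to these 8 genes was not tested.

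**Figure D4:**
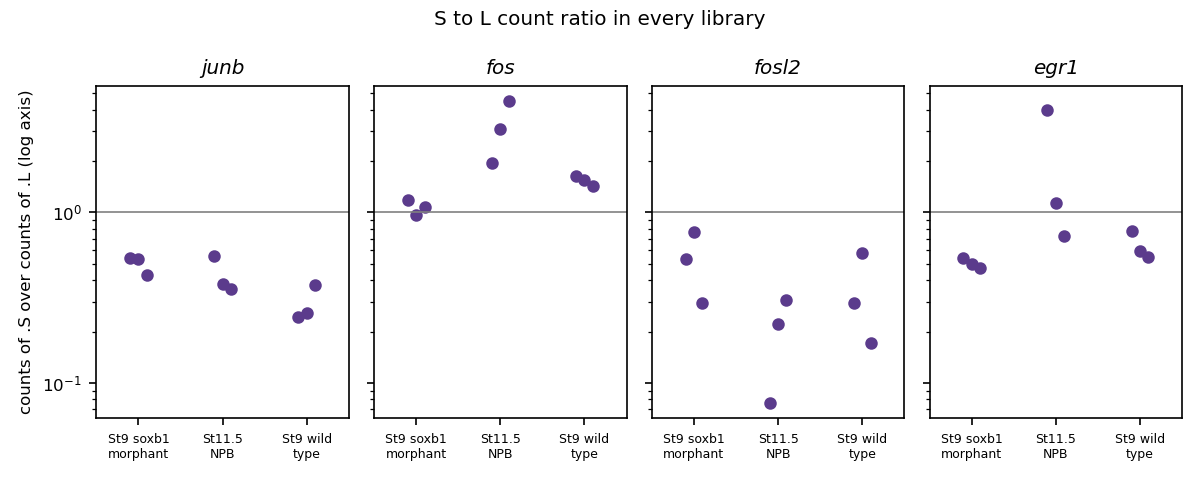
Ratio of .S to .L counts of junb, fos, fosl2 and egr1 in every library, on a log axis, with a line at equal counts. The junb ratio lies higher in morphants than in wild type, the fos ratio lies lower, and the fos ratio in NPB explants (1.96 to 4.5) lies above both stage 9 groups.

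Genes that act with or upstream of these factors were examined as lists. Over all rows tested in morphants, 5.75% were called higher and 6.71% lower. Of the AP-1 partners and other bZIP factors, 3 of 20 tested rows were higher in morphants and 0 lower, with a median log2 fold change of 0.07 against 0.01 over all genes. One row changed by at least 2-fold, mafb.S (a Maf factor of blood and hindbrain cells), at 7.65 ± 2.53 CPM in morphants and 3.69 ± 1.41 CPM in wild type (SD, n = 3 each; edgeR adjusted p = 0.000281). Of the MAP kinases and their phosphatases, 4 of 22 rows were higher and 4 lower (median -0.09). dusp1.S, whose product removes phosphate from MAP kinases and is itself an immediate early gene, fell to 41.7 ± 8.87 CPM in morphants, against 106 ± 36.6 CPM in wild type (SD, n = 3 each), with a fitted log2 difference of -1.31 ± 0.08 (SE; edgeR adjusted p = 1.05e-07). SRF and its partners had 0 of 11 rows called in either direction by edgeR or DESeq2 (median 0.02). At an unadjusted p under 0.05 there were 2, where 5406 of all 21659 rows passed.

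Other immediate early genes had 9 of 47 rows higher and 3 lower in morphants (median 0.10), where 5.75% of all rows were higher and 6.71% lower. The largest changes were in plk2, a polo-like kinase gene that p53 can also switch on, and zfp36, whose product speeds decay of AU-rich mRNAs. plk2.S stood at 44, 23.3 and 33.5 CPM in morphants, against 3.98, 2.37 and 4.04 CPM in wild type (log2 fold change 3.27 ± 0.12 SE; edgeR adjusted p = 5.49e-10), and plk2.L gave 2.37 ± 0.11 (adjusted p = 1.25e-08). zfp36.L (2.74 ± 0.27 SE; adjusted p = 7.38e-06) and zfp36.S (1.66 ± 0.32 SE; adjusted p = 0.0313) rose as well. No lowered row of the list changed by 2-fold.

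Genes of the p53 and damage response were examined in the same way, beside the 5.75% of all rows called higher and 6.71% called lower in morphants. In morphants 9 of 20 tested rows were higher and 0 lower (median 0.28), and the summed level of the list was 808 to 834 CPM in morphants, against 648 to 688 CPM in wild type. They were led by ccng1.L (2.77 ± 0.14 SE; edgeR adjusted p = 2.36e-08), cdkn1a.L (2.42 ± 0.15 SE; adjusted p = 9.49e-08), mdm2.L (1.95 ± 0.08 SE; adjusted p = 1.52e-09) and sesn1.S (1.54 ± 0.24 SE; adjusted p = 0.00298), which encode a cyclin-related protein, a cell cycle inhibitor, the ubiquitin ligase of p53 and a stress protein. Heat shock and unfolded protein response genes had 0 of 20 rows called by edgeR or DESeq2 (median 0.01). At an unadjusted p under 0.05 there were 3 higher and 1 lower, where 5406 of all 21659 rows passed. Markers of cell types also moved, and their counts stand beside the 5.75% called higher and 6.71% called lower over all rows. Neural plate border markers had 1 of 12 tested rows higher and 5 lower in morphants, with a summed level of 116 to 156 CPM, against 280 to 338 CPM in wild type. Epidermis markers had 3 of 7 rows higher and 0 lower (143 to 194 CPM in morphants, against 97.7 to 139 CPM in wild type). Blastula animal pole markers had 4 of 12 higher, among them sox3.L and sox3.S of the targeted sox3, and 1 lower. Neural markers had 2 of 3 higher, both of them rows of the targeted sox2, and 1 lower, olig2.L. Neural crest markers had 0 of 4 higher and 1 lower. Mesoderm and endoderm markers changed with 9 of 15 tested rows higher and 2 lower in morphants and a summed level of 237 to 311 CPM, against 123 to 223 CPM in wild type. None of the mesoderm and endoderm rows was at 0 in every library. The part of these genes in the levels of the AP-1 genes was not tested, and loss of SoxB1 factors cannot be told apart from an effect of injecting a morpholino. In bulk RNA, more cells of a type and more RNA per cell cannot be told apart.

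**Figure D5:**
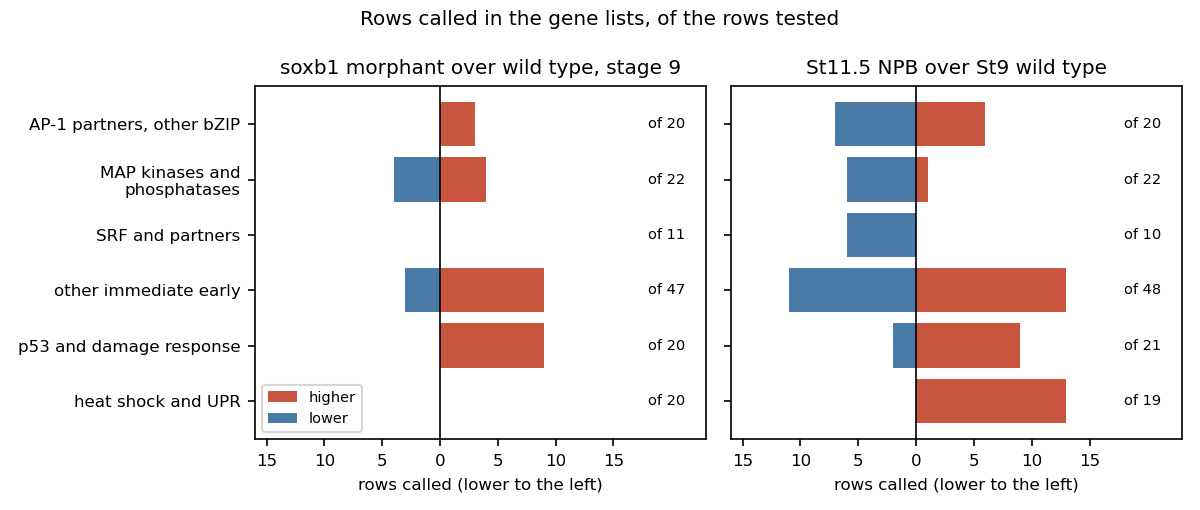
Number of rows called higher (right of 0) and lower (left of 0) in each gene list, with the number tested at the right edge, for soxb1 morphant over wild type at stage 9 and St11.5 NPB over St9 wild type (edgeR, adjusted p of 0.05 or less). p53 and damage response genes had 9 of 20 rows higher and 0 lower in morphants, and heat shock genes had 13 of 19 rows higher in NPB explants. Over all rows 5.75% were called higher in morphants and 26.9% in NPB explants.

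In neural plate border explants at stage 11.5, fos, fosb, junb and egr1 were far lower than in blastula explants, while atf3 and fosl2 were higher. Of 17 member rows that passed the filter, 7 were called lower, where 26.7% of all 21981 rows tested were, and 2 were called higher, where 26.9% of all rows were. The wild-type libraries are those of the morphant comparison, so the comparisons are not independent. Over all genes tested the median change was -0.72 log2 units with library totals alone, against -0.04 with TMM, whose factors were 0.6505 to 0.765 in NPB and 1.15 to 1.216 at stage 9. Under that scaling 10 member rows were lower, where 44.3% of all rows were, and 0 were higher, where 16.5% of all rows were.

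Both fos rows fell. fos.L had 1, 2.24 and 1.39 CPM in NPB explants, against 14 to 32.7 CPM in wild type, and the groups did not overlap. Its log2 fold change was -3.73 ± 0.48, a 13.2-fold difference (SE; edgeR adjusted p = 0.000453). fos.S had 1.96, 6.93 and 6.26 CPM in NPB explants, against 21.1 to 53.7 CPM in wild type, a change of -2.66 ± 0.57 (SE; edgeR adjusted p = 0.00524). The .S to .L ratio was 1.96, 3.1 and 4.5 in NPB explants, above every stage 9 library.

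fosb.S had 4, 9 and 9 counts in NPB explants, or 0.167, 0.395 and 0.241 CPM, against 2.66 to 6.19 CPM in wild type. Its change of -4.04 ± 0.57 (SE; edgeR adjusted p = 0.000683) was the largest among the members, at a level near the floor of 3 counts. fosb.L had 3, 2 and 17 counts in NPB explants and 6, 34 and 42 in wild type, and its -1.75 ± 0.85 did not pass the test (SE; edgeR adjusted p = 0.116).

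junb fell in both rows. junb.L had 8.46, 22 and 10.3 CPM in NPB explants, against 44.5 to 109 CPM in wild type (-2.31 ± 0.49 SE; edgeR adjusted p = 0.00493). junb.S had 4.67, 8.33 and 3.67 CPM in NPB explants, against 11.5 to 26.5 CPM in wild type (-1.76 ± 0.43 SE; edgeR adjusted p = 0.00861). Replicate 2 of the NPB libraries was the highest for both rows, and no NPB library reached the wild-type range.

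egr1.L had 2, 39 and 44 counts in NPB explants, or 0.0834, 1.71 and 1.18 CPM, against 6.95 to 10.7 CPM in wild type. Replicate 1 was under the floor of 3 counts. The log2 fold change was -3.24 ± 0.80 (SE; edgeR adjusted p = 0.0103). egr1.S had 0.333, 1.93 and 0.856 CPM in NPB explants, against 4.11 to 8.29 CPM in wild type (-2.54 ± 0.64 SE; edgeR adjusted p = 0.0104).

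fosl2.L and atf3.L ran the other way. fosl2.L had 14.3, 32.4 and 14.5 CPM in NPB explants, against 2.7 to 8.46 CPM in wild type, with no overlap (1.94 ± 0.51 SE; edgeR adjusted p = 0.0121). atf3.L had 2.96, 4.25 and 1.98 CPM in NPB explants, against 0.591 to 1.01 CPM in wild type, again with no overlap (1.97 ± 0.49 SE; edgeR adjusted p = 0.00987). Under library totals alone both stayed positive, at 1.27 and 1.28, but lost the call (adjusted p = 0.0603 for fosl2.L and 0.0517 for atf3.L), and atf3.L also lost it without NPB replicate 2 (1.66; adjusted p = 0.0504).

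Their .S rows were not called. fosl2.S had 1.08, 7.15 and 4.42 CPM in NPB explants, against 0.464 to 2.78 CPM in wild type (1.15 ± 0.81 SE; edgeR adjusted p = 0.264). atf3.S had 2.42, 3.11 and 3.45 CPM in NPB explants, against 1.15 to 2.46 CPM in wild type (0.84 ± 0.45 SE; edgeR adjusted p = 0.145). With homeologs added, both genes were called higher, fosl2 at 1.75 ± 0.52 (adjusted p = 0.0225) and atf3 at 1.29 ± 0.40 (adjusted p = 0.0258).

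The remaining rows were not called. fosl1.L had 0.167, 0.57 and 1.42 CPM in NPB explants, against 18.6, 1.27 and 0.982 CPM in wild type, and the fit gave -3.22 ± 1.29 (SE; edgeR adjusted p = 0.0687). Wild type replicate 1 was the high library, and without it the value was -0.65 (adjusted p = 0.563). It passed without wild type replicate 2 (-3.73; adjusted p = 0.0452) or replicate 3 (-3.74; adjusted p = 0.0397). fosl1.S had 0.208, 1.27 and 1.18 CPM in NPB explants and 0.0546 to 1.8 CPM in wild type (-0.34 ± 1.06 SE; adjusted p = 0.805).

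The jun rows parted: jun.L had 0.792, 1.14 and 0.856 CPM in NPB explants, against 0.573 to 0.775 CPM in wild type, and jun.S had 0.292, 0.614 and 0.348 CPM, against 0.409 to 1.15 CPM. Fitted values were 0.50 ± 0.47 for jun.L, which is -0.18 under library totals alone, and -0.73 ± 0.62 for jun.S (SE; edgeR adjusted p = 0.404 and 0.349). jund.S had 4.46, 2.63 and 3.53 CPM in NPB explants and 3.31 to 9.77 CPM in wild type (-0.81 ± 0.45 SE; adjusted p = 0.166). jund.L, which did not pass the filter, had 6, 1 and 52 counts in NPB explants and 0, 0 and 3 in wild type, so nearly all of its NPB counts came from replicate 3.

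Levels can be set side by side between genes in the NPB libraries, for which length-corrected transcript levels (TPM, again as parts of 1000000) were deposited. fosl2.L was the most abundant on average, at 8.4 ± 4.99 TPM (SD, n = 3), and its libraries had 5.16, 14.2 and 5.9 TPM. junb.L followed at 5.47 ± 3.31, junb.S at 2.85 ± 1.37, fos.S at 2.61 ± 1.51, atf3.S at 2.02 ± 0.497 and jund.S at 1.55 ± 0.317 TPM. atf3.L and fosl2.S averaged 1.31 and 1.29 TPM, and the other 10 rows lay under 1 TPM, down to fosb.S at 0.113 ± 0.0945 TPM. Every row overlapped its neighbours in this order, and only rows further apart, such as junb.L (2.93 to 9.21 TPM) and jund.S (1.19 to 1.77 TPM), were separated over the 3 libraries.

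Of the AP-1 partners and other bZIP factors, 6 of 20 rows were higher and 7 lower in NPB explants (median log2 fold change -0.52 against -0.04 over all genes). These shares were not far from the 26.9% higher and 26.7% lower over all rows. Those higher were led by creb1 and atf4, CREB family factors of cAMP and amino acid stress signalling: creb1.S stood at 256 ± 16.6 CPM in NPB explants and 27.7 ± 3.32 CPM in wild type (SD, n = 3 each; edgeR adjusted p = 2.10e-05), creb1.L changed by 2.48, atf4.S by 2.87 and atf4.L by 1.96 log2 units. Those lower were led by crem.L (-2.40), batf3.S (-2.35), atf2.L (-1.63) and atf7.L (-1.58), of which atf2 and atf7 encode partners of Jun. The edgeR adjusted p-values of these 8 rows were between 2.10e-05 and 0.0169.

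Of the MAP kinases and phosphatases, 1 of 22 rows was higher and 6 lower (median -0.63). Over all rows 26.9% were higher and 26.7% lower, with a median of -0.04. The share of lowered rows was close to that over all rows, and the share of raised rows was far below it. map2k6.L, a kinase of the p38 branch, had 82.5 ± 4.82 CPM in NPB explants and 6.32 ± 1.77 CPM in wild type (SD, n = 3 each; edgeR adjusted p = 5.16e-05). map2k4.S (-2.12; adjusted p = 0.000343) and map2k7.S (-1.68; adjusted p = 0.00915), which activate the JNK branch that phosphorylates Jun, were lower, as was dusp4.S (-1.83; adjusted p = 0.00593). SRF and its partners had 6 of 10 tested rows lower and 0 higher (median -1.20). elk4.L (-2.61; edgeR adjusted p = 0.00134), mrtfa.S (-2.51; adjusted p = 0.00043), elk4.S (-1.57; adjusted p = 0.046) and mrtfb.S (-1.43; adjusted p = 0.0232) led them, ternary complex and myocardin-related factors that bring signals to SRF.

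Other immediate early genes had 13 of 48 rows higher and 11 lower in NPB explants (median -0.07), shares close to the 26.9% higher and 26.7% lower over all rows, so the count says nothing particular of the list. egr4.L (3.55; edgeR adjusted p = 0.000728), a relative of egr1, was among those higher, at 6, 17.3 and 20 CPM in NPB explants, against 1.58, 1.12 and 0.982 CPM in wild type. zfp36.S (3.03; adjusted p = 0.00129), zfp36l1.S (2.99; adjusted p = 0.000465) and plk2.L (2.94; adjusted p = 9.92e-05) were higher too. zfp36l2.1.S (-5.74; adjusted p = 0.000127), zfp36l2.2.L (-5.21; adjusted p = 3.62e-05), klf2.L (-4.43; adjusted p = 1.82e-05) and klf2.S (-2.91; adjusted p = 5.85e-05) were the most lowered.

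Stress-related lists were also higher in NPB explants, where 26.9% of all rows tested were higher and 26.7% lower. p53 and damage response genes had 9 of 21 rows higher and 2 lower (median 0.84), with ccng1.L at 6.61, cdkn1a.S at 3.50, sesn1.S at 3.43 and mdm2.L at 1.43 log2 units above wild type, and ccng2.L at -2.91 and zmat3.S at -1.05 (edgeR adjusted p between 0.000141 and 0.0397). cdkn1a.S was near the floor in wild type, at 0.236, 0.207 and 0.109 CPM, and had 1.46, 0.833 and 4.04 CPM in NPB explants. cdkn1a.L, named for morphants, was not among the rows with the largest called rise here. Heat shock and unfolded protein response genes had 13 of 19 rows higher and 0 lower (median 1.44), led by hsp90aa1.1.L (5.48), hspa8.L (3.46), herpud1.S (3.44) and hspa1l.S (3.31; adjusted p between 4.23e-05 and 0.000325). Their summed level was 15749 to 25172 CPM in NPB explants, against 2670 to 3335 CPM in wild type. Most of the NPB sum came from hspa8.L (mean 7445 CPM, against 672 CPM in wild type) and hspa1l.S (8043 against 808 CPM). Markers of other cell types moved as well. Neural markers had 6 of 7 tested rows higher and a summed level of 325 to 614 CPM in NPB explants, against 24.8 to 42.2 CPM in wild type, and epidermis markers had 5 of 7 rows higher, at 288 to 544 CPM in NPB explants, against 97.7 to 139 CPM in wild type. Blastula animal pole markers had 3 of 12 rows higher and 4 lower, and neural crest markers 1 of 4 higher and 1 lower, shares near those over all rows. Mesoderm and endoderm markers were lower, with 9 of 13 tested rows lower and 1 higher and a summed level of 7.21 to 50.6 CPM in NPB explants, against 123 to 223 CPM in wild type, and the part of any of these genes in the member levels was not tested.

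The genes whose pattern over the 9 libraries was nearest to that of the most abundant members were taken by the root mean square difference of centred log2 CPM, among 14726 rows. junb.S and junb.L were each other's nearest row, at 0.41 log2 units. Next to junb.L came LOC108699955 (0.42) and rell1.S (0.43), and next to junb.S came nuak2.L and LOC108705688 (0.49 each). LOC108699955 had 31.3, 17.8 and 27.3 CPM in morphants and 29.9, 15.9 and 22 CPM in wild type, with overlapping groups. In NPB explants it had 3.25, 5.57 and 4.55 CPM. rell1.S had 60.6, 45.6 and 51.8 CPM in morphants, 3.21, 6.58 and 5.59 CPM in NPB explants and 32, 26.8 and 26 CPM in wild type. The likeness is a description over 9 libraries.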

How the data were processed

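The authors trimmed reads with fastp, used STAR to align them to genome release 9.2, and counted reads per gene with HTSeq. The deposited counts are not normalized and stand in one table for stage 9 and another for NPB explants. Libraries were directional and single end. Tool versions, annotation and strand setting are not given in the sources used here. For the NPB libraries TPM values made by the authors with RSEM were deposited as well. Their own table of the stage 9 comparison (base means, fold changes and p-values) was not used. Columns of the NPB tables were assigned by replicate number and the table named in the labels. The labelled treatment was taken as given, although the methods also describe induction with small molecules. Of 3 tested rows of wnt8a and chordin, 2 were called higher in NPB explants and 0 lower. chrd.1.S had 3779, 17501 and 3865 CPM in NPB explants, against 0.218 to 1.55 CPM in wild type. wnt8a.L had 447, 717 and 383 CPM in NPB explants, against 0.266 to 1.05 CPM in wild type.

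The members and lists were chosen with earlier results of these data known. Symbols of all 18 rows were found in a RefSeq gene table of a later assembly (v10.1), used for names alone. Counts were tested with the edgeR 4.0.16 quasi-likelihood F test (robust, R 4.3.3) after filterByExpr and TMM, with Benjamini-Hochberg adjustment over all rows tested and calls at 0.05. Each SE was derived from the F statistic (size of the log2 change divided by its root) and is approximate. Libraries of the same number at stage 9 were paired: their deviations from group means correlated at 0.842 to 0.856 over 23154 rows (different numbers, -0.455 to -0.385). Deviations from a group mean sum to 0, so the negative values follow from the positive ones and add nothing to them. For the same-number values the stage 9 fit had the replicate number as a block. The NPB fit had none (same number, -0.045 to 0.005). The fits were tested on simulated counts, where the stage 9 fit recovered 192 of 200 planted changes with 13 false calls, and the NPB fit 193 with 10. The simulation gave all genes the same dispersion, which need not match the spread of these libraries. It checks the working of the fits and not their error rate in these data. Libraries of a group differed by a chi-square of at least 44.7 per row, so none was a copy. No promoter sequence was searched for motifs here. Every member row is described. A list gene is named when called and changed at least 2-fold, at most 4 per direction (1 such gene is not reported here), and like patterns were sought for the 2 most abundant member rows among rows with a mean log2 CPM above 2. Alternatives were DESeq2 1.42.0, other scalings and filters, homeologs summed, libraries left out and other blocks.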

Additional observations from a re-analysis of the deposited data

How the results depend on the processing

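The 6 member rows called in morphants were counted again under each alternative. The count was 10 with rows of 1 count or more over the libraries compared (8 higher, 2 lower). In that fit 1602 of all 37290 rows were higher and 1915 lower. Added there were fos.L and atf3.L as higher and egr1.L and egr1.S as lower. The edgeR adjusted p of junb.S was 4.85e-69, against 2.14e-08 in the main fit. With L and S counts summed 3 of 9 genes were called, all higher, where 902 of all 16151 genes were higher and 1104 lower. The count was 0 in edgeR with no replicate block or with all 9 libraries in 1 fit (2 rows at an unadjusted p under 0.05 in each). DESeq2 with no replicate block, an alternative chosen after seeing the data, called 1. Paired DESeq2 called 4, all higher, where 866 of all 21659 rows were higher and 1121 lower. Leaving out each pair gave 4 to 6, where 709 to 1183 rows were higher and 794 to 1428 lower, of 22107 to 22352 tested. Over all rows edgeR called 0 of 21659 with no replicate block, and 6 higher and 20 lower of 23154 with all 9 libraries in 1 fit. At an unadjusted p under 0.05 there were 1238 and 1170 rows in these fits. DESeq2 with no replicate block called 179 higher and 258 lower of 21659. For NPB the 9 calls ranged from 8 to 10 without 1 library. Over all rows 5417 to 5576 were then higher and 4872 to 5445 lower, of 22809 to 23013 tested. With the replicate block the member calls were again 9 (2 higher, 7 lower), where 5328 of all 21981 rows were higher and 5176 lower. Signs turned for jun.L in morphants (-0.77 to 0.20 without 1 pair) and NPB (-0.18 under library totals alone), jund.S in morphants (-0.06, -0.03 and 0.30 without replicates 1, 2 and 3), fos.S in morphants (-0.29 to 0.37 without 1 pair) and fosl1.S in NPB (0.11 without NPB replicate 1, 0.17 without wild type replicate 2, range -0.92 to 0.17), none of them called. The cause was not tested, beyond fewer samples or rows. Of the other values per row, 149 of morphant and 202 of NPB kept direction and side of the threshold, 23 and 3 lost the call, and 7 and 5 gained it. DESeq2 gave no adjusted p for fosl1.L without the block and in NPB. Rows near 3 counts, jund.L, fosb.L and fosb.S in NPB above all, are limited by depth.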
